A study of Mus musculus with 9 samples.

Results

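The granzyme genes and the perforin gene of the mouse were followed through bulk RNA of 9 KLN205 tumors. The set holds 10 genes of the 19481 in the deposited table: *Gzma*, *Gzmb*, *Gzmc*, *Gzmd*, *Gzme*, *Gzmf*, *Gzmg*, *Gzmk*, *Gzmm* and *Prf1*. They were taken by symbol, and the set was put together because *Gzme* was lower in the sh3 tumors. For that reason the members' values for sh3 against control are given here as a description, without a test. KLN205 is a lung squamous cell carcinoma line from a DBA/2 mouse. The control, sh2 and sh3 groups held 3 tumors each and carried a doxycycline-inducible SMART vector with a control shRNA or with an shRNA against *Tmprss11b*, a membrane serine protease. The constructs labelled sh2 and sh3 are called shRNA1 and shRNA2 in the study's own text. All 9 tumors grew under the skin of the flank of wild-type female DBA/2 mice, all mice drank doxycycline, and all tumors were taken on day 50. The shRNA was carried by the injected carcinoma cells, which were drug-selected pools, while the immune cells came from the host. The age of the mice was not used here.

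Granzymes are serine proteases that cytotoxic T cells and natural killer (NK) cells store in granules. Perforin forms pores that let them reach the target cell. Granzyme B cleaves after aspartate and starts apoptosis, granzymes A and K cut as trypsin does, and granzyme M prefers methionine. Mice also carry granzymes C to G, a cluster of recent gene copies next to *Gzmb* that humans lack and that is known from strongly activated killer lymphocytes and from the pregnant uterus.

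The tumors had between 20653219 and 24047784 counts each. *Tmprss11b* itself, listed as *Tmprss11bnl*, had 18, 51 and 42 counts in control, 7, 2 and 5 in sh2 and 10, 4 and 5 in sh3 tumors, and in CPM (counts scaled by TMM-corrected library size) each of the 6 knockdown tumors was below each control tumor. Across all genes, edgeR's quasi-likelihood test with Benjamini-Hochberg adjustment called 0 of 14725 in each of the 3 comparisons. In the same tests 518 genes had an unadjusted P under 0.05 for sh2 against control, 976 (6.63%) for sh3 against control and 1057 for sh3 against sh2. DESeq2 called 2, 41 and 48 genes, and the edgeR likelihood ratio test 0, 8 and 14. By mean correlation of log2 CPM with the other tumors, sh3 1 (0.9429) and sh2 2 (0.9495) were farthest, and control 1 was at 0.9669. In a quasi-likelihood fit without sh3 1, 2154 genes for sh3 against control and 2832 for sh3 against sh2 had an unadjusted P under 0.05. In both comparisons of that fit 0 genes were called. Control 1 stood apart by 47 genes that were over 10 times their level in every other tumor. Its epidermal keratins *Krt5* and *Krt10* stood at 87.4 and 45.7 CPM, against at most 5.02 and 4.22 elsewhere. Muscle genes varied within every group, and their 4 summed markers ranged from 23.4 to 3330 TPM (a level per transcript length, scaled to a common total) among the control tumors.

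The likeness of granzymes C to G touches each of their values below. In GENCODE M21 (GRCm38), *Gzmb*, *Gzmc*, *Gzmf*, *Gzmg*, *Gzmd* and *Gzme* lie in that order on the minus strand of chromosome 14, from *Gzmb* at chr14:56258838-56262260 down to *Gzme* at chr14:56117626-56120625. *Gzma* (chr13:113093825-113100981) and *Gzmk* (chr13:113171608-113225908) are neighbours on chromosome 13, while *Gzmm* (chr10:79689020-79695261) and *Prf1* (chr10:61297833-61304680) lie apart on chromosome 10. The coding sequences of *Gzmd* and *Gzme* were identical at 94.8% of 747 aligned bases. *Gzmg* matched *Gzme* at 90.1% and *Gzmd* at 88.9%, *Gzmf* matched *Gzme* at 84.9%, and *Gzmc* matched *Gzme* at 73.9%. *Gzmb* was nearest to *Gzmc*, at 77.2%. The longest run that *Gzmd* and *Gzme* coding sequences share without a mismatch is 96 bases, from coding base 410 to 505 of *Gzmd* and from 398 to 493 of *Gzme*, and a read inside it cannot be given to either gene.

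Gzmd and Gzme: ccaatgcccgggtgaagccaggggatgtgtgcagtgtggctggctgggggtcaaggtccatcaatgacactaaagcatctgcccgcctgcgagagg

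Of all 50-base stretches of the annotated transcripts, 21.9% for *Gzmd*, 20.6% for *Gzme*, 19.8% for *Gzmg*, 7.36% for *Gzmf* and 4.14% for *Gzmc* occur letter for letter in a transcript of another gene. The other 5 members had 0% at this length. With 100-base stretches, 0.231% remained for *Gzmd*, 0.247% for *Gzmg* and 0% for the rest. Exact matches are a lower limit, the reference is the C57BL/6J genome rather than DBA/2, and neither the read length nor the treatment of reads that fit several genes is given in the sources used here. The separate levels of *Gzmc* to *Gzmg* are therefore uncertain, and their summed counts are given beside them.

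The start regions of *Gzmc* to *Gzmg* are alike, although not all of these genes varied alike over the tumors, so their sequences are shown. RefSeq promoters (GRCm38.p6, 250 bases before to 50 after the start) were found for all 10 members. Over that window *Gzmd* and *Gzme* were identical at 94.0% of 299 aligned bases, *Gzmf* and *Gzmg* at 89.7%, *Gzmd* and *Gzmf* at 88.9%, *Gzme* and *Gzmf* at 87.8%, and *Gzmc* and *Gzme* at 86.7%. The 150 bases before each start follow, 5′ to 3′ on the minus strand. Capitals mark the 8 bases that align with TGACGTCA, the cAMP response element (CRE), in *Gzmf*. The windows are chr14:56120626-56120775 for *Gzme*, chr14:56132594-56132743 for *Gzmd*, chr14:56234658-56234807 for *Gzmc*, chr14:56159580-56159729 for *Gzmg* and chr14:56211408-56211557 for *Gzmf*.
Gzme: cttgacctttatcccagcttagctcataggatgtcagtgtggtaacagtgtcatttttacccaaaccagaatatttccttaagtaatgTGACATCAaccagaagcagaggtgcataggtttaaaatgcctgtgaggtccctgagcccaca
Gzmd: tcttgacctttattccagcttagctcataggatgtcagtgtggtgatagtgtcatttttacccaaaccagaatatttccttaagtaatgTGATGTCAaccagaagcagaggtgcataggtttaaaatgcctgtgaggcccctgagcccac
Gzmc: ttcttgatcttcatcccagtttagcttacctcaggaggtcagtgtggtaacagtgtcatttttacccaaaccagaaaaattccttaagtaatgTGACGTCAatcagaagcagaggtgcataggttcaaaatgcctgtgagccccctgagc
Gzmg: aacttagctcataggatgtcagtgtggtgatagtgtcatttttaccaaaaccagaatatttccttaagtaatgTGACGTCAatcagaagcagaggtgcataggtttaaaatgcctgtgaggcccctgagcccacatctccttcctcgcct
Gzmf: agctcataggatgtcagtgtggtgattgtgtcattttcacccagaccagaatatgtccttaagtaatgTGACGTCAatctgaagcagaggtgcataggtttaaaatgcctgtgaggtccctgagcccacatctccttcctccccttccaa

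*Gzmb*, for whose start region no identity with these is given, reads as follows at chr14:56262335-56262484.

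Gzmb: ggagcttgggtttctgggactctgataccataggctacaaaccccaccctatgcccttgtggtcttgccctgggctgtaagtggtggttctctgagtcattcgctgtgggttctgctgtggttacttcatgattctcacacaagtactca

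The CRE letters TGACGTCA, which read the same on both strands, occur in the windows of *Gzmc*, *Gzmf* and *Gzmg* and in 1.79% of all 32851 promoters. The aligned bases of *Gzmd* are TGATGTCA (C4T, counted from 1 at the first letter of the element) and those of *Gzme* are TGACATCA (G5A). The RUNX letters TGTGGT, searched on both strands of the 300 bases, occur in 16.8% of all promoters. They have 2 matches each in *Gzmb*, *Gzmc*, *Gzmd*, *Gzme*, *Gzmf* and *Gzmg*, 1 each in *Gzma*, *Gzmm* and *Prf1*, and 0 in *Gzmk*. The AP-1 letters TGANTCA were found in *Gzmb* alone among the members (7.81% of all promoters), and the T-box letters GGTGTGA in *Gzmk* alone (3.98%). No member's window holds both the CRE and the AP-1 letters. These are matches of letters in a reference window and not measured binding.

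Per transcript length, the carcinomas with control shRNA were led by the clustered granzymes rather than by granzyme B. The TPM deposited by the authors put *Gzme* first in control tumors, at 54.9 ± 24.9 TPM (SD, n = 3), followed by *Gzmd* at 34.9 ± 19.8. *Gzma* (12.5 ± 4.51), *Gzmb* (11.6 ± 4.80), *Gzmc* (11.5 ± 5.23), *Prf1* (7.13 ± 2.79) and *Gzmk* (5.96 ± 1.36) formed a middle group. *Gzmm* (3.40 ± 0.328), *Gzmf* (2.27 ± 1.75) and *Gzmg* (0.292 ± 0.227) came last. Going down this order, the ranges of neighbours failed to overlap only between *Gzmd* and *Gzma*, between *Gzmk* and *Gzmm* and between *Gzmf* and *Gzmg*. The ranges of the other neighbours overlapped. Within each control tumor, however, *Gzme* was above *Gzmd*, at 82.97, 46.48 and 35.39 against 56.5, 30.63 and 17.59 TPM. *Gzme* in control tumors lay above 79.7% of all genes in the table, *Gzmb* above 49.5% and *Gzmg* above 20.1%. The 10 genes together took at most 0.00804% of a tumor's counts.

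**Figure D1:**
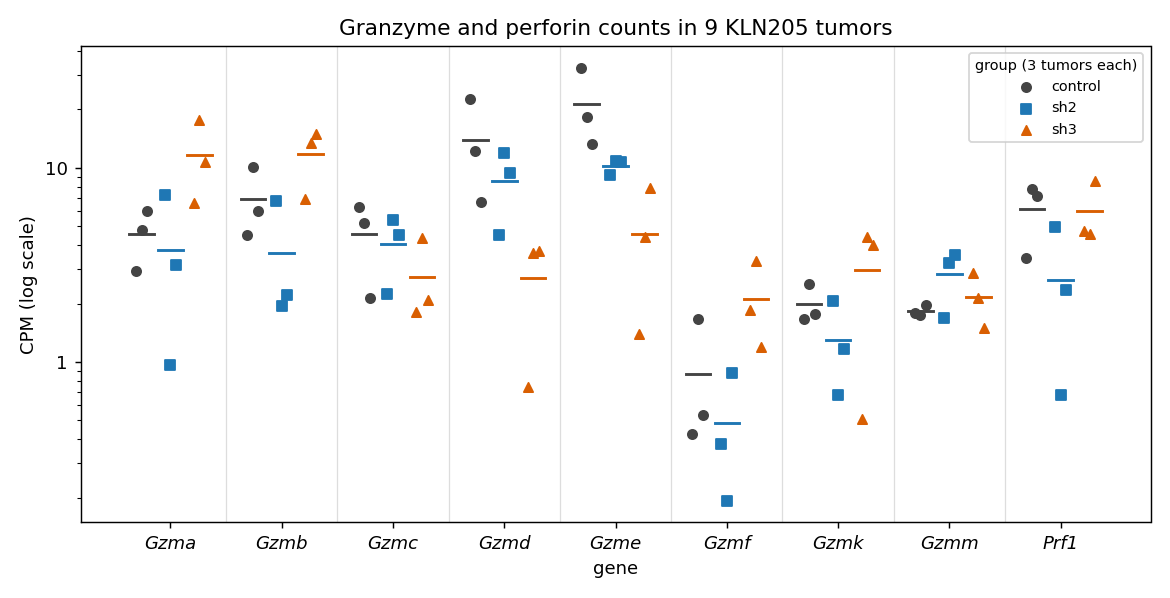
CPM of 9 members on a log axis, by gene and group, with 1 point per tumor and a bar at the mean of the 3 tumors of a group. *Gzmg* (0 to 5 counts per tumor) is left out. The 3 sh3 tumors lie below all control tumors for *Gzmd* and *Gzme* and above them for *Gzma*.

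The order differed between groups. *Gzme* was the highest member in 3 of 3 control tumors and in sh2 1 and sh2 3, and *Gzmd* in sh2 2. *Gzma* was the highest in 3 of 3 sh3 tumors, in which *Gzme* ranked 7, 4 and 3. Together, *Gzmc*, *Gzmd* and *Gzme* made up 84.3%, 62.8% and 55.6% of the summed TPM of the 10 genes in control tumors and 46.6%, 82.2% and 69.5% in sh2 tumors. In sh3 tumors they made up 17.6%, 23.8% and 29.8%, below each of the other 6 tumors. The sum over all 10 genes was 144 ± 39.5 TPM in control, 85.7 ± 4.38 in sh2 and 88.1 ± 27.5 in sh3 tumors (SD, n = 3). Between sh2 and sh3 the mixture differed more than the sum. The other 7 genes summed to 29.5 ± 16.7 TPM in sh2 and 66.2 ± 17.3 in sh3 tumors, whereas *Gzmc*, *Gzmd* and *Gzme* summed to 56.2 ± 13.2 and 21.9 ± 10.8. These shares include *Gzme*, on which the set was chosen, and are a description. In bulk tumor RNA, fewer cells of a type and less RNA per cell cannot be told apart.

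**Figure D2:**
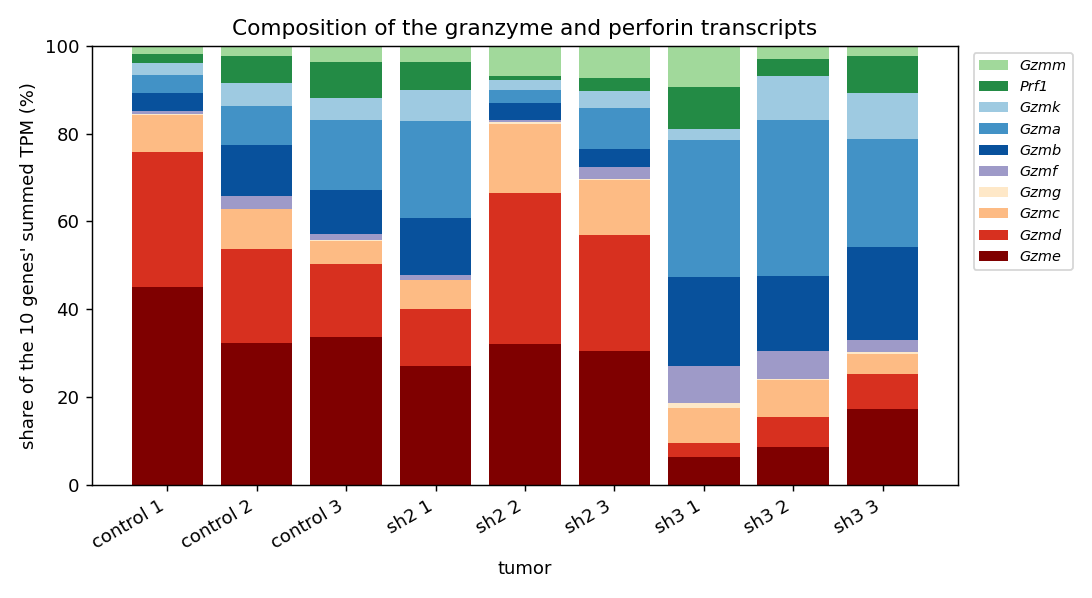
Share of each of the 10 genes in their summed TPM (percent, bars from 0 to 100) for each tumor. The red and orange segments (*Gzme*, *Gzmd* and *Gzmc*) take 46.6% to 84.3% in the 6 control and sh2 tumors and 17.6% to 29.8% in the 3 sh3 tumors.

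Among the clustered granzymes, *Gzme* had 32.8, 18.3 and 13.2 CPM in control, 9.23, 10.9 and 10.7 in sh2 and 1.39, 4.42 and 7.87 in sh3 tumors. The groups did not overlap, and each sh2 tumor lay between the control and the sh3 tumors. *Gzmd* had 22.7, 12.2 and 6.67 CPM in control, 4.51, 11.9 and 9.43 in sh2 and 0.740, 3.66 and 3.72 in sh3 tumors. Its sh3 tumors were below all others, while control and sh2 tumors overlapped. *Gzmc* had 6.30, 5.17 and 2.13 CPM in control, 2.23, 5.36 and 4.51 in sh2 and 1.80, 4.37 and 2.10 in sh3 tumors, and all its groups overlapped. *Gzmf* was ordered differently, with 0.426, 1.66 and 0.532 CPM in control, 0.379, 0.193 and 0.876 in sh2 and 1.85, 3.30 and 1.20 in sh3 tumors. Its sh3 tumors were above all sh2 tumors and overlapped with control 2. *Gzmg* had 5, 1 and 2 counts in control, 0, 3 and 2 in sh2 and 5, 3 and 4 in sh3 tumors, and it did not pass the filter on low counts. The values of *Gzmf* rested on 4 to 65 counts per tumor and those of *Gzme* on 30 to 771.

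Among the members outside granzymes C to G, *Gzmb* had 4.52, 10.1 and 5.98 CPM in control, 6.78, 1.93 and 2.21 in sh2 and 6.89, 13.5 and 14.9 in sh3 tumors. Every sh3 tumor exceeded every sh2 tumor, sh2 1 and sh3 1 by little. *Gzma* had 2.94, 4.76 and 5.98 CPM in control, 7.20, 0.966 and 3.17 in sh2 and 6.57, 17.6 and 10.7 in sh3 tumors. Its sh3 tumors were above all control tumors, and sh2 1 lay among them. *Gzmk*, a granzyme of memory-like T cells, had 1.66, 2.53 and 1.76 CPM in control, 2.06, 0.676 and 1.17 in sh2 and 0.509, 4.42 and 4.02 in sh3 tumors. Its sh3 tumors were split, with sh3 1 the lowest of all 9. *Prf1* had 3.45, 7.74 and 7.16 CPM in control, 4.93, 0.676 and 2.34 in sh2 and 4.72, 4.57 and 8.60 in sh3 tumors, with sh2 2 and sh2 3 lowest. *Gzmm*, a granzyme of resting NK and innate-like T cells, had 1.79, 1.74 and 1.97 CPM in control, 1.69, 3.24 and 3.55 in sh2 and 2.87, 2.13 and 1.50 in sh3 tumors. It was highest in sh2 3 and sh2 2, the tumors in which *Gzmb* and *Prf1* were lowest.

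To ask whether shRNA sh2 changed the cytotoxic genes, its tumors were compared with the control tumors. Of the 9 members that passed the filter, 0 were called (0% of all genes tested), 0 had an unadjusted P under 0.05 (3.52% of all genes), and 8 had a log2 fold change below 0 (48.2% of all genes). The median of the 9 was -0.69, against 0.01 over all genes. The counts and the median include *Gzme*, on which the set was chosen, and *Gzmc* and *Gzmd*, which can share reads with it. The 9 members are not independent of one another, so the counts and the median are a description. *Prf1* differed by -1.20 ± 0.631 (log2 fold change ± SE, adjusted P = 0.999, 3 against 3 tumors) in edgeR's quasi-likelihood test, and *Gzme* by -1.06 ± 0.535. The control tumors are those by which *Gzme* was chosen, so its value here is not independent of that choice and is a description. *Gzme* was the only member whose groups did not overlap, a pattern that 5.83% of all genes showed in the lower direction and 5.56% in the higher, where no member did. For *Prf1* the exact two-sided permutation test gave P = 0.2, where 3 against 3 tumors allow no value below 0.1. *Gzmb* (-0.91 ± 0.541), *Gzmf* (-0.83 ± 0.720), *Gzmd* (-0.69 ± 0.628), *Gzmk* (-0.60 ± 0.710), *Gzma* (-0.27 ± 0.641) and *Gzmc* (-0.17 ± 0.520) had the same sign, and *Gzmm* (0.62 ± 0.385) the opposite. The summed row of *Gzmc* to *Gzmg* gave -0.80 ± 0.441. The differences rested on few tumors: without control 1 *Gzme* was at -0.62, *Gzmd* at -0.14 and *Gzmc* at 0.14, without control 2 *Gzmf* was at 0.03, without sh2 2 *Gzma* was at 0.20 and *Prf1* at -0.74, and without sh2 1 *Prf1* was at -2.02, *Gzmb* at -1.73 and *Gzma* at -1.14. Without sh2 3 *Gzmf* was at -1.57.

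Against the same control tumors, sh3 gave a divided picture, which the choice of the set fixes in part. *Gzmd* stood at -2.35 ± 0.665 and *Gzme* at -2.23 ± 0.557 (log2 fold change ± SE), from 13.9 ± 8.14 to 2.71 ± 1.70 CPM and from 21.4 ± 10.2 to 4.56 ± 3.24 CPM (SD, n = 3). *Gzmc* was at -0.72 ± 0.525, and the summed row of *Gzmc* to *Gzmg* at -1.73 ± 0.452. In contrast, *Gzma* was at 1.35 ± 0.644, *Gzmf* at 1.27 ± 0.692, *Gzmb* at 0.77 ± 0.534, *Gzmk* at 0.59 ± 0.700 and *Gzmm* at 0.24 ± 0.386. *Prf1* was at -0.04 ± 0.617, and between -0.42 and 0.17 as tumors were left out. In counts, 4 members were below 0 and 5 above (45.1% of all genes were below 0), with a median of 0.24 against 0.03 over all genes. *Gzmd* and *Gzme* lay below all control tumors (5.44% of all genes did) and *Gzma* above them (6.78%). Without control 1, the tumor with epidermal keratins, *Gzme* was at -1.79 and *Gzmd* at -1.82, and without sh3 3 *Gzme* was at -2.91. *Gzmf* was at 2.11 without control 2 and at 0.8 without sh3 2. *Gzma* was at 0.924 without sh3 2 and at 1.63 without sh3 1.

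**Figure D3:**
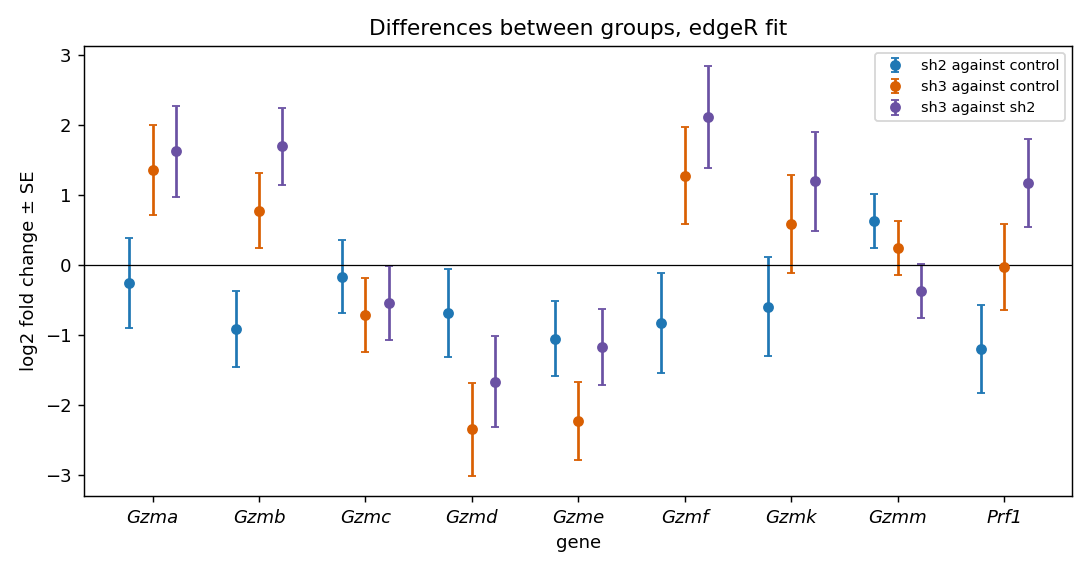
Log2 fold change of 9 members in the 3 comparisons, with error bars of 1 standard error from the edgeR fit over all 9 tumors. *Gzmd* and *Gzme* are below 0 in all 3 comparisons, and *Gzma*, *Gzmb*, *Gzmf* and *Gzmk* are below 0 for sh2 and above 0 for sh3 against the shared control tumors.

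Between the knockdown groups, the mean levels of *Gzmb* and *Gzma* were higher in sh3 than in sh2 tumors, but none of the 5 members tested here passed (0% of all genes did). For *Gzmb* the difference was 1.69 ± 0.549 (log2 fold change ± SE, adjusted P = 0.673, edgeR quasi-likelihood), the groups did not overlap, and the exact permutation test gave P = 0.1. *Gzma* differed by 1.62 ± 0.650 (adjusted P = 0.673 in the same edgeR test), *Gzmk* by 1.19 ± 0.712 (0.701) and *Prf1* by 1.17 ± 0.631 (0.683). *Gzmm* was at -0.38 ± 0.384 (0.823). For *Gzma* and *Gzmb* the unadjusted P was under 0.05, as it was for 7.18% of all genes. As a description, *Gzmf* was at 2.11 ± 0.722, *Gzmd* at -1.67 ± 0.653, *Gzme* at -1.17 ± 0.544, *Gzmc* at -0.55 ± 0.526 and the summed row at -0.93 ± 0.446. Of the 9 members that passed the filter, those with no overlap were *Gzmb* and *Gzmf* in the higher direction (5.51% of all genes) and *Gzmd* and *Gzme* in the lower (4.62%). *Gzmg*, below the filter, did not overlap in CPM either (0.152 to 0.231 in sh3, at most 0.145 in sh2 tumors), on 0 to 5 counts per tumor. In raw counts it did meet, as sh3 2 and sh2 2 both had 3. *Gzme* was at -1.85 without sh3 3 and at -0.735 without sh3 1, where *Gzmd* was at -1.22. *Gzmf* was at 2.82 without sh2 3 and at 1.63 without sh3 2. Without sh2 2, the tumor lowest in *Gzma*, *Gzmb* and *Prf1*, the differences were 1.14 for *Gzma*, 1.36 for *Gzmb* and 0.70 for *Prf1*. Without sh2 1 they were 2.47, 2.49 and 1.97.

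Across the 9 tumors 2 patterns appeared among the members, given here as correlations of log2 CPM without a test, since tumors share groups and the members of the cluster share reads. *Gzmd* and *Gzme* had Pearson's r = 0.95 and Spearman's rho = 0.95, which was 0.78 (Pearson) without sh3 1 and control 1 and 0.90 on deviations from the group means. The count ratio of *Gzme* to *Gzmd* stayed between 0.915 and 2.11, while *Gzme* itself ranged from 1.39 to 32.8 CPM. The part that reads shared by both genes have in this was not tested. *Gzmc* followed them less closely, with r = 0.79 to *Gzmd* and 0.60 to *Gzme*. In the other pattern, *Gzmb* had r = 0.88 with *Gzma* (0.79 within groups), 0.84 with *Prf1* (0.79 within groups, 0.55 without sh2 2 and sh2 3), 0.73 with *Gzmk* and 0.69 with *Gzmf* (0.28 within groups). *Gzmf*, the copy whose start region and coding sequence resemble those of *Gzmd* and *Gzme*, had r = -0.52 with *Gzmd* and -0.53 with *Gzme* (-0.19 within groups). Between the patterns, *Gzmb* and *Gzme* had r = -0.26 (0.23 within groups). *Gzmm* ran against *Gzmb* (r = -0.75), *Prf1* (-0.74) and *Gzmk* (-0.74) and had r = -0.34 with *Gzme*. *Gzmg* had r = -0.29 with *Gzme* and -0.20 with *Gzmd*, but its few counts cannot place it in or outside a pattern. The count ratio of *Gzme* to *Gzmb* was 7.27, 1.80 and 2.21 in control, 1.36, 5.62 and 4.83 in sh2 and 0.201, 0.328 and 0.529 in sh3 tumors. The cytolytic score, the geometric mean of *Gzma* and *Prf1* in TPM, was 9.38 ± 3.40 in control, 5.57 ± 4.75 in sh2 and 12.4 ± 2.64 in sh3 tumors (SD, n = 3), and all groups overlapped.

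**Figure D4:**
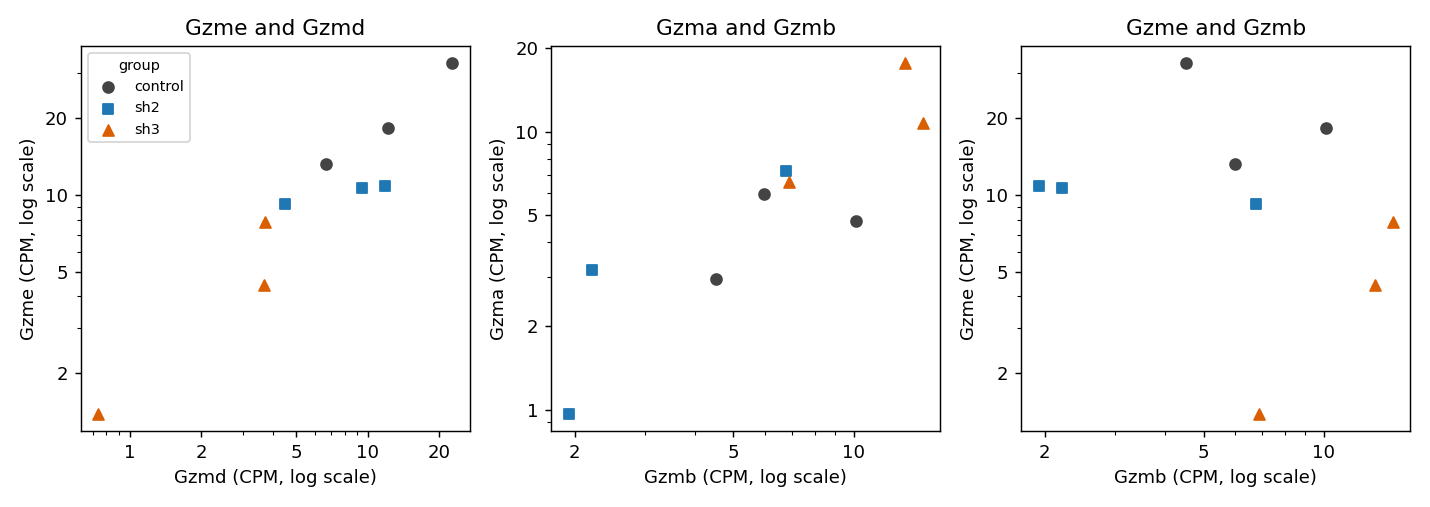
CPM of 3 pairs of genes on log axes, 1 point per tumor, by group. *Gzmd* and *Gzme* lie along a line (r = 0.95), as do *Gzmb* and *Gzma* (r = 0.88), while *Gzmb* and *Gzme* do not (r = -0.26) and the 3 sh3 tumors lie below the other tumors in *Gzme*.

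Gene lists, with markers of killer lymphocytes and of other cells among them, were next set beside the members. Over 13 gene lists, 109 genes in all, 106 were in the table and 94 passed the filter. Of these, 0 were called in any comparison by edgeR, and 11, 3 and 17 had an unadjusted P under 0.05 for sh2 against control, sh3 against control and sh3 against sh2. These are 11.7%, 3.19% and 18.1% of the 94, beside 3.52%, 6.63% and 7.18% of all genes. The lists were drawn up with earlier results of these data known, and genes of a list are not independent, so these shares are a description. The 11 for sh2 against control held 0 T cell and 0 NK markers. They were *Ifng*, *Mcpt8*, *Mcpt9*, *Mcpt4*, *Cma1*, *Cpa3*, *Krt10* and the muscle genes *Acta1*, *Ckm*, *Myh4* and *Mylpf*. All 13 T cell markers, the CD3 chains and the kinases *Lck* and *Zap70* among them, had a log2 fold change below 0 in sh2 (median -0.51) and above 0 in sh3 (median 0.46). Over all genes 48.2% and 45.1% were below 0. The 13 mark T cells together and are not independent, and *Cd4* was at -0.04 ± 0.39 in sh2. Tumors of a group differed: *Cd3g* had 15.3, 17.8 and 18.0 CPM in control, 21.8, 3.29 and 11.1 in sh2 and 10.7, 33.9 and 39.5 in sh3 tumors. None of the 13 markers reached an adjusted P under 0.05, and between sh3 and sh2, where the median was 1.05, *Cd3d*, *Cd2*, *Cd5* and *Zap70* had an unadjusted P under 0.05. Their summed level was 133 to 176 TPM in control, 35.4 to 184 in sh2 and 101 to 271 in sh3 tumors. The 8 of 11 NK markers that passed, with medians of -0.77, 0.26 and 1.19 in the 3 comparisons, ranged in sum over all 11 from 65.3 to 83.4 TPM in control, 19.1 to 69.7 in sh2 and 43.6 to 113 in sh3 tumors. *Ncr1*, the NK receptor NKp46, had 1.53, 2.36 and 4.38 CPM in control, 3.29, 0.676 and 1.63 in sh2 and 4.12, 6.91 and 5.77 in sh3 tumors. *Cd8a*, the killer T cell co-receptor, had 16.9, 23.6 and 26.3 CPM in control, 23.3, 2.37 and 8.55 in sh2 and 10.7, 15.5 and 44.7 in sh3 tumors. *Klra4* and *Klra8*, Ly49 receptors of NK cells, were at or near 0 in every tumor (at most 0.171 CPM). The reference is the C57BL/6J genome rather than DBA/2, and the part of the mouse strain in these counts was not tested.

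The 2 patterns of members stood differently to these markers. The mean log2 CPM of the T cell list had r = 0.90 with *Gzma*, 0.89 with *Prf1*, 0.85 with *Gzmb* and 0.82 with *Gzmk*, and that of the NK list 0.87, 0.90, 0.91 and 0.86. Without sh2 2 and sh2 3 *Prf1* was at 0.48 and 0.53 and *Gzmb* at 0.75 and 0.79. For *Gzme* the values were -0.05 and 0.01, for *Gzmd* -0.25 and -0.19 and for *Gzmc* -0.40 and -0.32. Within groups they were 0.37 and 0.43 for *Gzme* and 0.03 and 0.11 for *Gzmd*, and without sh3 1 and control 1 they were -0.36 and -0.31 for *Gzme* and -0.77 and -0.72 for *Gzmd*. *Gzmf* had 0.56 with both, which was -0.10 and -0.02 without sh3 2 and sh2 2. *Gzmm*, although a gene of lymphocytes, had -0.75 and -0.83. With the carcinoma and epidermis list *Gzme* had r = 0.80 and *Gzmd* 0.78. The values were 0.79 and 0.77 within groups and 0.82 and 0.83 without control 1, and the relation did not hold without both sh3 1 and control 1 (-0.13 and 0.07). The 8 tested genes of the list differed in r with *Gzme*. *Krt14* had 0.82, *Krt6a* 0.79, *Trp63* 0.71, *Krt5* 0.70, *Lor* 0.61 and *Krt10* 0.44, but *Sox2* had 0.03 and *Epcam* -0.22. *Epcam* was at 757 CPM in control 1 and at 973 CPM in sh3 1. In control 1, *Gzme*, *Gzmd* and *Gzmc* and the keratins *Krt5*, *Krt10* and *Krt14* were all at their highest, and in sh3 1 *Gzme* and *Gzmd* were at their lowest with *Krt14* at 12.3 CPM, against 59.9 to 390 CPM elsewhere. The macrophage markers *Csf1r*, *C1qa* and *C1qb* were at their lowest in sh3 1 too (117, 296 and 207 CPM). *Cd68* was lowest in sh2 2 and *Mrc1* in sh3 3. Whether skin, carcinoma or macrophage content had a part in the levels of *Gzme*, *Gzmd* and *Gzmc* was not tested. The carcinoma and epidermis list had medians of -1.13, -0.89 and 0.09 over its 8 tested genes in the 3 comparisons, and summed to 1040 to 1840 TPM in control, 1100 to 1580 in sh2 and 902 to 1230 in sh3 tumors.

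**Figure D5:**
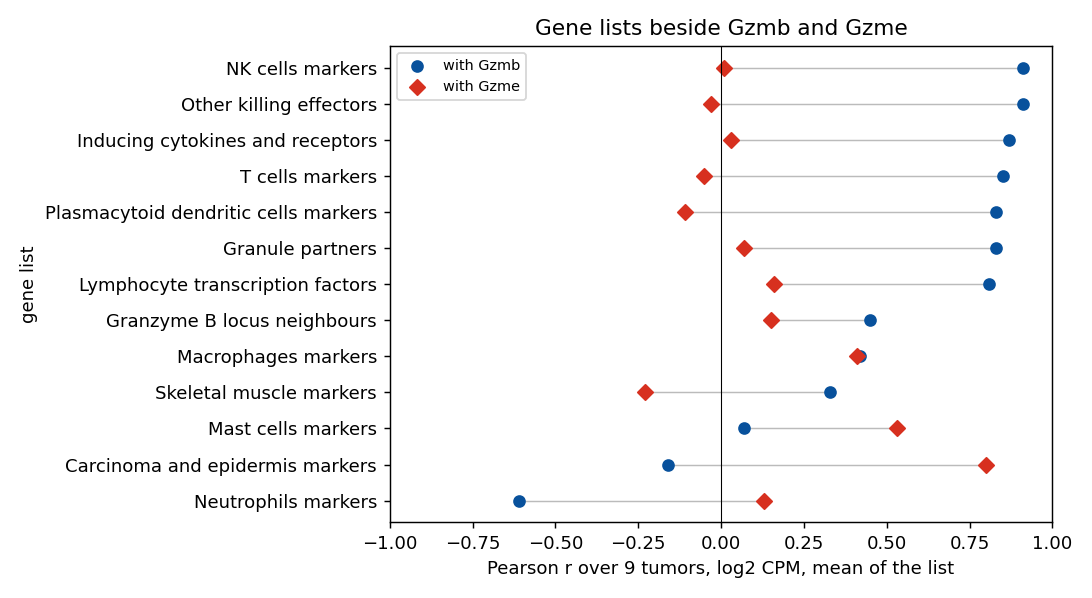
Pearson's r over 9 tumors between the mean log2 CPM of each of 13 gene lists and *Gzmb* (blue circles) or *Gzme* (red diamonds). For the T cell, NK cell and killing effector lists r lies at 0.85 to 0.91 with *Gzmb* and between -0.05 and 0.01 with *Gzme*.

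The partners of the granules were described in the same way. *Nkg7*, a granule protein needed for degranulation, had 14.9, 18.4 and 17.4 CPM in control, 16.6, 2.42 and 8.09 in sh2 and 10.2, 25.3 and 36.4 in sh3 tumors, and had r = 0.89 with *Gzmb* and 0.00 with *Gzme*. *Cst7*, cystatin F, which holds back the proteases that activate granzymes, had r = 0.86 and 0.02. *Serpinb9*, the inhibitor of granzyme B, had 120, 147 and 141 CPM in control, 125, 114 and 104 in sh2 and 110, 182 and 209 in sh3 tumors. Between sh3 and sh2 it was the only partner under an unadjusted P of 0.05, at 0.55 ± 0.220 on the log2 scale (adjusted P = 0.673 in edgeR's quasi-likelihood test). The broadly expressed partners differed among themselves. *Ctsc*, the protease that activates granzymes, had r = 0.68 and 0.29, and *Lamp1*, of the granule membrane, had 0.63 and 0.25. *Srgn*, the granule proteoglycan serglycin, had 0.11 and -0.06, and *Unc13d*, which primes granule fusion, -0.06 and -0.45. Over the 13 partners, 11 were lower in sh2 than in control tumors (median -0.24) and 11 higher in sh3 (median 0.14), with *Lamp1* at 0.0002 among the latter. Over all genes 48.2% and 45.1% were below 0 in these comparisons. No partner had an unadjusted P under 0.05 in either comparison.

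Of the other killing molecules, *Ifng*, a main cytokine of killer lymphocytes, had 1.66, 2.19 and 3.40 CPM in control, 1.31, 0.483 and 0.918 in sh2 and 1.99, 4.42 and 4.49 in sh3 tumors, with sh2 below all other tumors. It differed by 2.00 between sh3 and sh2 on the log2 scale (adjusted P = 0.673 in edgeR's quasi-likelihood test). *Fasl*, the death ligand, and *Tnfsf10*, which encodes TRAIL, each had r = 0.86 with *Gzmb* and -0.02 with *Gzme*. *Tnf* did not follow it (r = -0.01). The 5 genes had medians of -0.44, 0.35 and 0.91 in the 3 comparisons. Of the lymphocyte transcription factors, *Tbx21*, which encodes T-bet, had 2.47, 2.61 and 2.95 CPM in control, 2.40, 0.435 and 1.29 in sh2 and 2.03, 4.32 and 4.75 in sh3 tumors, with r = 0.89 to *Gzmb* and -0.09 to *Gzme*. *Eomes*, its relative, was highest in sh3 1 (60.4 CPM) and had r = 0.30 and -0.72. The 7 tested factors had medians of -0.40, 0.16 and 0.46, and *Zfp683* was not in the table.

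Among the cytokines that induce granzymes and their receptors, *Il2ra*, the high-affinity chain of the interleukin 2 receptor, had 1.70, 2.32 and 2.13 CPM in control, 3.20, 1.45 and 1.71 in sh2 and 3.65, 5.18 and 4.28 in sh3 tumors. All sh3 tumors were above all others. The receptor chains *Il12rb1* and *Il12rb2* had r = 0.91 and 0.94 with *Gzmb* and -0.12 and -0.37 with *Gzme*. The cytokine genes *Il2*, *Il12a* and *Il21* did not pass the filter, and the 12 that did had medians of -0.43, 0.36 and 0.91. Next to *Gzme* on chromosome 14 lie proteases of mast cells and other granulocytes, with *Mcpt8* known from basophils. *Mcpt4*, a chymase, had 5.96, 3.02 and 3.85 CPM in control, 1.05, 1.16 and 1.08 in sh2 and 2.64, 1.47 and 0.684 in sh3 tumors, below control in all 6 knockdown tumors, and had r = 0.32 with *Gzme* and -0.03 with *Gzmb*. For sh2 against control 4 of the 6 tested neighbours had an unadjusted P under 0.05 (*Mcpt8*, *Mcpt9*, *Mcpt4* and *Cma1*; 3.52% of all genes did), with a median of -1.17 over the 6, and -0.74 for sh3. The mast cell markers had medians of -0.89 and -0.81 and summed to 15.3 to 46.6 TPM in control, 11.8 to 21.7 in sh2 and 12.6 to 18.6 in sh3 tumors. The part of mast cells in the levels of the neighbours was not tested.

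The remaining marker lists were set beside the members in the same way. Macrophage markers had r = 0.42 with *Gzmb* and 0.41 with *Gzme* and medians of -0.29, 0.08 and 0.37. Neutrophil markers had r = -0.61 and 0.13 and medians of 0.62, -0.22 and -0.70. Plasmacytoid dendritic cell markers, which include the interferon-induced gene *Bst2*, had r = 0.83 and -0.11 and medians of -0.19, 0.46 and 0.65. Skeletal muscle markers had r = 0.33 and -0.23 and medians of -4.65, -1.48 and 3.16.

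The genes whose log2 CPM was most like that of *Gzmb* over the 9 tumors, among 13596 genes, were *A530032D15Rik* (r = 0.959), *Osgin2* (0.956), *Lap3* (0.954), *Zfp831* (0.949), *H2-Q4* (0.938), *Il12rb2* (0.937), *Serpina3f* (0.934), *Traf1* (0.932), *Gpr141* (0.930) and *Serpina3g* (0.930). *Lap3*, an aminopeptidase, ranged from 83.8 to 217 CPM, and *Serpina3g*, a serpin, from 43.7 to 389 CPM. For *Gzme* they were *Porcn* (0.956), *Arhgap33* (0.944), *Tpcn2* (0.942), *Tacr1* (0.935), *Tgfbr2* (0.935), *Pglyrp3* (0.934), *Tmem109* (0.927), *Esyt1* (0.919), *Krt15* (0.916) and *8430408G22Rik* (0.916). *Porcn*, the enzyme that adds the lipid to Wnt proteins, ranged from 9.29 to 25.4 CPM, *Tgfbr2*, a receptor for TGF-beta, from 257 to 540 CPM, and *Krt15*, a basal keratin, from 0.185 to 23.0 CPM. Such rankings over 9 points rest on the tumors at the ends of the range, and the lists had no gene in common.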

How the data were processed

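RNA of 9 tumors, 3 per group, was analysed. Groups and replicate numbers came from the sample titles. According to the methods and the submitters' processing notes, the authors checked reads with FastQC, aligned them with STAR 2.5.3a to mm10 and counted them with featureCounts. They deposited raw counts per gene, a CPM signal (count over total and TMM factor) used only as a check, and TPM per transcript length. Gene annotation, strand setting and read length are not given in the sources used here. The table's fold changes and p-values are the authors' own edgeR comparisons and were not used.

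The counts were fitted in R 4.3.3 with edgeR 4.0.16: filterByExpr, TMM, all 9 tumors in 1 robust quasi-likelihood fit with no covariate, Benjamini-Hochberg adjustment over the 14725 genes kept, and a threshold of 0.05. DESeq2 1.42.0 was an alternative. CPM in the text is the count over the total times the TMM factor. Correlations used log2 CPM with a prior count of 2, and deviations from group means within groups. The floor of 3 counts lay between 0.123 and 0.152 CPM and covers counting error only. Counts were simulated for all 14725 genes, with a change put into a random subset. Of the changed genes, 79% with a log2 change of 2 and 27% with a change of 1 were recovered for sh2 against control. For sh3 against control 81% and 26% were recovered. The simulated counts were drawn independently around 1 mean per gene, so they lack differences between tumors that many genes share. The percentages hold for such counts and do not measure how well a change in the members would be found. Sequences were read from RefSeq promoters (GRCm38.p6) and GENCODE M21 transcripts with Biopython 1.88.

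All 10 members are named, as is the targeted gene. The 10 genes nearest to *Gzmb* and to *Gzme* by Pearson's r, among genes averaging 1 CPM or more, are named too, and genes of the lists (granule partners, killing effectors, transcription factors, cytokines and receptors, locus neighbours and 8 sets of cell markers) where they had an unadjusted P under 0.05 or define the list; any further gene was picked with its values in view. The members and lists were chosen with earlier results of these data known. *Adgre1*, *Ly6g* and *Zfp683* were not in the table.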

Additional observations from a re-analysis of the deposited data

How the results depend on the processing

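The settings varied were the test (DESeq2's Wald or edgeR's likelihood ratio), the size factors (those of DESeq2), the filter (none, or a minimum of 10 counts per tumor), the tumors fitted (the 2 groups alone, or without a given tumor), a replicate block, and a summed row for *Gzmc* to *Gzmg*. For the members' log2 fold changes, 434 of the values kept direction and side of the threshold, 9 changed sign and 1 passed the threshold. The last was *Gzme* for sh3 against control under DESeq2, at -2.24, so that DESeq2 called 1 member there; the set was chosen on this contrast, and the call is no test of it. DESeq2 called 2 genes for sh2 against control, 41 for sh3 against control and 48 for sh3 against sh2, and the likelihood ratio test 8 and 14 in the last 2, where the quasi-likelihood test called 0; the cause was not tested. All 9 sign changes came from leaving out a tumor. For sh2 against control *Gzmc* ranged from -0.51 to 0.14, with 0.14 without control 1 and 0.12 without sh2 1, *Gzmf* from -1.57 to 0.0265 (without control 2) and *Gzma* from -1.14 to 0.20 (without sh2 2), and for sh3 against control *Prf1* from -0.42 to 0.17 and *Gzmm* from -0.0133 (without sh3 1) to 0.43. For sh3 against control *Gzme* ranged from -2.91 to -1.79 and *Gzmd* from -2.70 to -1.82, and for sh3 against sh2 *Gzmb* from 1.36 to 2.49. With the replicate number as a block, 0 genes and 0 members were called in each comparison. The deviations of same-numbered tumors from their group means had a mean correlation of -0.0991 over 9 pairs (range -0.235 to 0.086). Over 18 pairs with different numbers it was 0.0519 (-0.297 to 0.385). Deviations from means of 3 tumors depend on one another, so these values cannot decide whether same-numbered tumors were linked. Depth limits *Gzmg*, at 0 to 5 counts, and *Gzmf*.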
